A study of Mus musculus with 6 samples.

Results

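The Tfh-like cells were 134 of 23651 kept splenic CD4 T cells (0.567%), chosen by the RNA molecules counted for 12 genes in each cell. A cell was kept with at least 200 genes, at most 12000 unique molecular identifiers (UMIs, counts of captured RNA molecules), at most 5% of UMIs from mitochondrial genes and at least 10% from ribosomal protein genes. A kept cell was taken as Tfh-like with at least 1 UMI of Cxcr5, at least 1 UMI of Pdcd1, Bcl6 and Il21 together (the gate genes), and 0 UMIs of Foxp3, Ccl5, Zbtb16, Cd79a, Ms4a1, C1qa, C1qb and C1qc. The cells came from 6 libraries of 10x Genomics 5' scRNA-seq, each from 1 mouse of strain C57BL6/J, 3 H2-O KO and 3 H2-O WT, all unimmunized and without treatment (called naive in the labels). By the labels the H2-O KO mice are knockouts of H2-O, an editor of the peptides on MHC class II. The mice were 8 weeks old by the labels, and 10 weeks old and female by the methods of the study. Live CD3+ CD4+ spleen cells were sorted, and by the labels B220+ and NK1.1+ cells were gated out. The study compared CD4 T cells that developed with and without H2-O.

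T follicular helper (Tfh) cells are CD4 T cells that enter B cell follicles through the chemokine receptor CXCR5 and help B cells to form germinal centers and switched antibody. Bcl6 is the transcription factor that directs this fate, PD-1 (Pdcd1) marks the cells at the surface, and IL-21 is their main cytokine. The spleen of an unimmunized mouse holds few of them. CD4 T follicular regulatory cells share Cxcr5, Pdcd1 and Bcl6 but carry Foxp3, the factor of regulatory T cells (Tregs), and cells with a Foxp3 UMI were left out by the rule.

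Depth ran from 9973193 UMIs over the called cells in H2-O WT replicate 1 to 40237962 UMIs in H2-O KO replicate 1. The Tfh-like cells of H2-O KO replicates 1 to 3 numbered 42, 25 and 33, and those of H2-O WT replicates 1 to 3 numbered 11, 5 and 18. Their summed UMIs ran from 28003 in H2-O WT replicate 2 to 232648 in H2-O KO replicate 1. The libraries were thus unequal in depth, and H2-O WT replicate 2 rested on 5 cells. The median Tfh-like cell had 5101.5 UMIs and the median other kept cell 4806. H2-O KO replicate 3 and H2-O WT replicates 1 and 3 stood apart from the others, with 32.2%, 35.1% and 30.4% of called cells over the mitochondrial limit against 5.37% and 7.27% in H2-O KO replicates 1 and 2 and 12.96% in H2-O WT replicate 2. The ribosomal limit then removed 47.9% and 46.3% of the cells left in H2-O WT replicates 1 and 3, 22.2% in H2-O WT replicate 2, and 3.38%, 8.09% and 16.9% in H2-O KO replicates 1 to 3. Pairs of libraries shared between 21 and 99 called barcodes. The barcodes of 7 Tfh-like cells (5.22%) were also called in another library, against 3.91% of all called cells.

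The alpha chain gene of H2-O, H2-Oa (chromosome 17 from 34092340 to 34095234 in GRCm38), was read first as a check of the labels. Levels are in CPM, a gene's UMIs in 1000000 UMIs. H2-Oa in the other kept cells was at 4.603, 3.62 and 4.00 CPM (H2-O KO replicates 1 to 3) and 6.18, 6.57 and 10.5 CPM (H2-O WT replicates 1 to 3), so that every H2-O KO library lay below every H2-O WT library. The Tfh-like cells held 0 H2-Oa UMIs in the 3 H2-O KO libraries and 3 UMIs in all in H2-O WT. H2-Ob, the beta chain, had 15 UMIs in the Tfh-like cells of H2-O KO and 0 in those of H2-O WT. In the other kept cells H2-Ob stood at 27.9, 33.7 and 27.4 CPM (H2-O KO) and 21.5, 21.2 and 21.7 CPM (H2-O WT). Neither gene was at 0 UMIs in the other kept cells of H2-O KO, and which part of which gene the deletion removes is not given in the sources used here, so that these levels check the labels only in part.

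The 5 markers were read next, and the values of the 4 that chose the cells are given as a description. Cxcr5 had 1 UMI in 92 Tfh-like cells, 2 UMIs in 24 and 3 or more in 18, with a highest value of 7. Pdcd1 was found in 88 of the 134 cells, Bcl6 in 70 and Il21 in 35. The cells were held by 1 gate gene in 89 cases, by 2 in 31 and by all 3 in 14. Most cells thus rest on few molecules, and Pdcd1 alone (47 cells) and Bcl6 alone (30 cells) were the largest groups. Of 207 kept cells that passed the positive gate, 59 had a Foxp3 UMI, 12 a Ccl5 UMI, 7 a Cd79a UMI and 5 an Ms4a1 UMI. The plot of UMIs cell by cell shows the spread of these genes and of those described below.

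**Figure D1:**
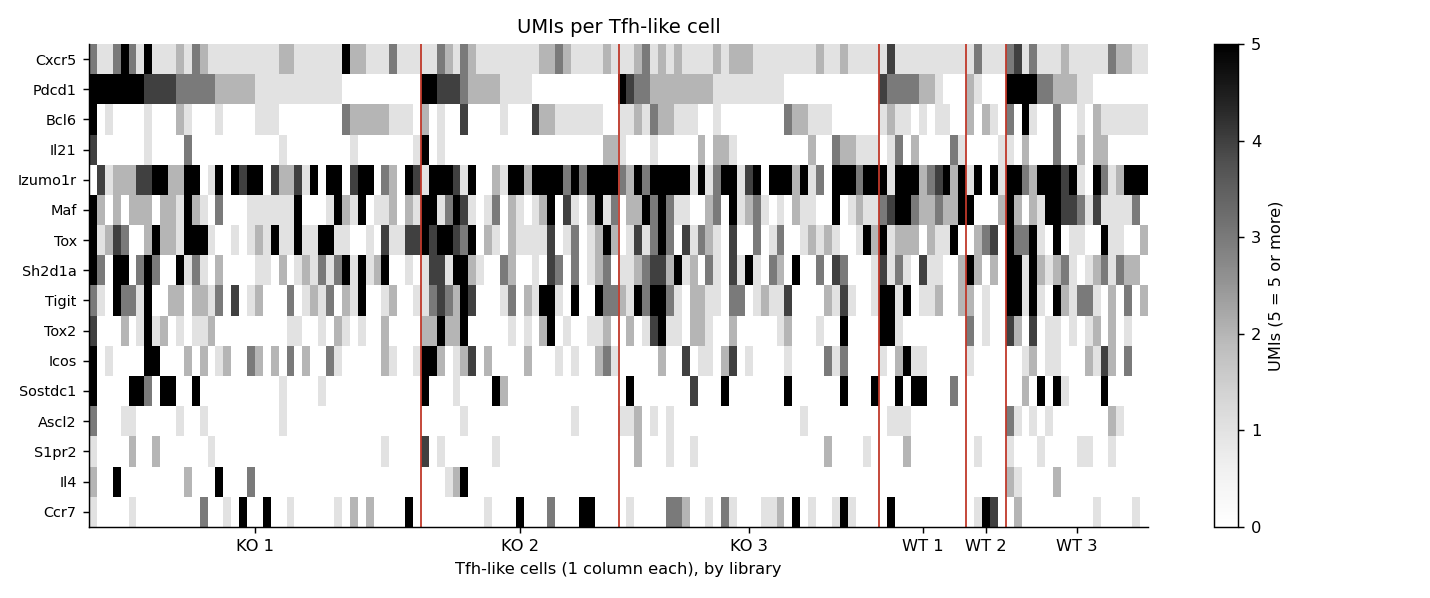
UMIs of 16 genes (rows) in each of the 134 Tfh-like cells (columns), grouped by library between the red lines and sorted within a library by Pdcd1, Bcl6, Il21 and Cxcr5. Grey runs from 0 UMIs (white) to 5 or more (black); Izumo1r was found in 120 of the cells, Il4 in 11.

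Izumo1r, which encodes folate receptor 4, a surface protein of Tfh cells and Tregs, is the marker the rule did not use. In the Tfh-like cells it stood at 834, 1209 and 1230 CPM (H2-O KO replicates 1 to 3) and 1024, 607 and 974 CPM (H2-O WT replicates 1 to 3). In the other kept cells it ran from 141 to 252 CPM, so that the populations did not overlap. The log2 change was 1.95 ± 0.11 (SE; edgeR adjusted p = 1.12e-61), higher in 6 of 6 libraries. At least 1 UMI was found in 89.6% of the Tfh-like cells, 32.0% of the other kept cells and 29.6% of Ccl5+ Foxp3-negative cells, at median depths of 5101.5, 4806 and 4600 UMIs. Near the threshold, the 31 Tfh-like cells with 1 UMI of Cxcr5 and 1 of the gate genes held 1292 CPM of Izumo1r and the 103 with more UMIs 956 CPM. In the same order Sh2d1a stood at 209.2 and 396.8 CPM, Icos at 104.6 and 200.9 CPM, and Maf at 326.1 and 400.1 CPM. Tox stood at 399.9 and 413.7 CPM, and Ccr7 was higher near the threshold, at 246.1 and 143.5 CPM. Just outside the threshold, the 185 Cxcr5+ cells without a gate UMI held 610.1 CPM of Izumo1r and the 1277 Cxcr5-negative cells with a gate UMI 385 CPM. Sh2d1a stood there at 197.5 and 150.3 CPM and Icos at 137.5 and 114.8 CPM. Of the T cell genes, Cd3e was found in 133 of the 134 cells and Cd4 in 110.

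Cxcr5, the gate genes and the excluded genes chose the cells, so that their shares are a description and support nothing about the Tfh-like cells. Among kept cells with none of the 8 excluded genes, Cxcr5 was found in 9.50% of 1411 gate-positive and 1.01% of 18284 gate-negative cells, at median depths of 5144 and 4811.5 UMIs. The range over the libraries was 2.73% to 11.6% and 0.746% to 1.36%. In Ccl5+ Foxp3-negative cells, of a cytotoxic rather than follicular kind, the share was 2.34%. In the 244 cells with a Cd79a or Ms4a1 UMI it was 11.9%, and Cxcr5 is known to be expressed by B cells.

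The share of Tfh-like cells did not separate the genotypes. It was 0.557%, 0.709% and 0.650% of kept cells (H2-O KO replicates 1 to 3) and 0.838%, 0.139% and 0.692% (H2-O WT replicates 1 to 3). H2-O WT replicate 2 was the lowest library and H2-O WT replicate 1 the highest, so that the groups overlapped. H2-O KO had a mean of 0.639% ± 0.0768 and H2-O WT one of 0.556% ± 0.369 (SD, n = 3 each), a difference of 0.0825 percentage points (exact two-sided permutation test, p = 0.9, where 20 assignments allow no p below 0.1). The exact 95% binomial intervals, which cover counting error only, were 0.0451% to 0.324% in H2-O WT replicate 2 and 0.419% to 1.49% in H2-O WT replicate 1. Without H2-O WT replicate 2 the difference was -0.126 percentage points (exact permutation p = 0.4). After each cell was thinned to 1500 UMIs the shares were 0.154% ± 0.0149 and 0.158% ± 0.102 (n = 3 each, exact permutation p = 1), with 630 and 637 shallower cells left out. Without the ribosomal limit the shares were 0.564%, 0.704% and 0.589% (H2-O KO) and 0.516%, 0.108% and 0.454% (H2-O WT), with all 3 H2-O KO libraries higher than the 3 H2-O WT libraries (exact permutation p = 0.1, the smallest this design can give).

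**Figure D2:**
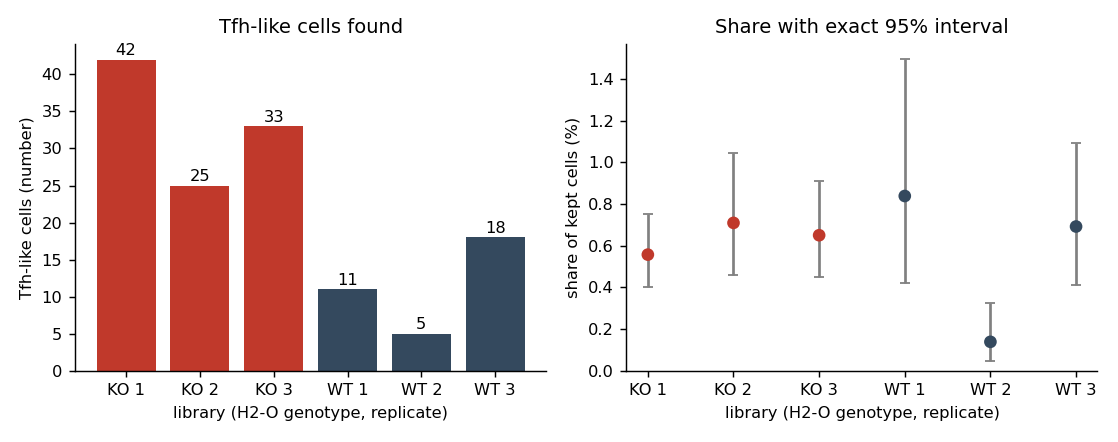
Left, the number of Tfh-like cells in each library (bars); right, their share of kept cells in percent (points) with the exact 95% binomial interval (lines), H2-O KO in red and H2-O WT in dark blue. H2-O WT replicate 2, with 5 cells and 0.139%, lies below the other 5 libraries.

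Against the other kept cells of the same libraries, the Tfh-like cells had higher RNA of many genes of the follicular program and lower RNA of genes of naive and recirculating T cells. UMIs were summed per library and population and tested with edgeR, with the library as a block. Of 9595 genes tested, the 12 genes of the rule left out, 602 were higher (6.27%) and 831 lower (8.66%) at an adjusted p under 0.05. The median log2 change over all genes was -0.09. On the plain CPM scale ratios lay 0.29 higher (log2, median over genes) than on the TMM scale of the log2 changes given here. The genes of each list were described by counts and the median change, with no test of the list.

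Among receptors and adhesion genes of Tfh cells, 8 of 12 were higher and none lower, with a median log2 change of 1.14. Tigit, an inhibitory receptor that binds CD155, stood at a lowest value of 107, a median of 388 and a highest value of 504 CPM in the Tfh-like cells, and between 15.3 and 57.1 CPM in the other kept cells. Its log2 change was 3.02 ± 0.15 (SE; edgeR adjusted p = 1.16e-84). S1pr2, which holds cells in the follicle center, rose by 2.73 ± 0.42 (log2, SE), and stood at 37.8 ± 7.48 CPM against 4.53 ± 0.893 CPM (SD, n = 6). Cd200 rose by 1.97, P2rx7 by 1.95, Tnfrsf4 (OX40) by 1.27, the costimulator Icos by 1.01 and Cxcr4 by 0.91 (log2). Icos was found in 42.5% of the Tfh-like cells, 21.1% of the other kept cells and 34.9% of the Ccl5+ Foxp3-negative cells. For Tigit these shares were 69.4%, 7.26% and 14.3%. The call of Cxcr4 was lost without H2-O KO replicate 1 (edgeR adjusted p = 0.0538), H2-O WT replicate 2 (0.0638) or H2-O WT replicate 3 (0.0543), and its log2 change was -0.10 (edgeR adjusted p = 0.948) with only the Tfh-like cells that also lacked 7 B cell genes. Cd40lg, the B cell help ligand, stood at 166 ± 65.3 against 151 ± 17.5 CPM (SD, n = 6), a log2 change of -0.11 ± 0.16 (SE). Btla (0.71), Il6ra (-0.29) and Il6st (-0.06) also missed the threshold.

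The SLAM receptors and their adaptor SAP hold Tfh cells to B cells. In the Tfh-like cells Sh2d1a, which encodes SAP, stood at 361, 382 and 325 CPM (H2-O KO) and 268, 357 and 426 CPM (H2-O WT). The other kept cells ran from 84.0 to 115 CPM, without overlap, and the log2 change was 1.44 ± 0.14 (SE; edgeR adjusted p = 4.13e-22). Slamf6 rose by 1.07 and Slamf7 by 1.67 (log2), so that 3 of 6 were higher and none lower. Slamf7, with 23 UMIs, lost its call without H2-O WT replicate 3 (edgeR adjusted p = 0.307) and turned to a negative log2 change with at least 2 gate genes found (0.103). Cd84 (0.45) and Slamf1 (0.56) missed the threshold, as did Ly9 at 101.5 ± 30.5 against 88.2 ± 11.04 CPM (SD, n = 6).

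Of the transcription factors of Tfh cells, 8 of the 11 tested were higher and 1 lower, with a median log2 change of 1.69. Tox2, an HMG-box factor tied to the Tfh fate, stood at 125, 304 and 158 CPM (H2-O KO replicates 1 to 3) and 189, 143 and 180 CPM (H2-O WT replicates 1 to 3). In the other kept cells Tox2 ran from 2.30 to 11.95 CPM, and its log2 change of 4.33 ± 0.26 (SE; edgeR adjusted p = 1.79e-59) was the largest among these factors. It was found in 44.8% of the Tfh-like cells, 2.07% of the other kept cells and 2.34% of the Ccl5+ Foxp3-negative cells. Maf, which drives IL-21 and IL-4, stood at 426 ± 190 CPM against 55.5 ± 15.8 CPM (SD, n = 6), a log2 change of 2.51 ± 0.14 (SE). Pou2af1 rose by 2.80, Tox by 1.98, Nfatc1 by 1.90, Id3 by 1.69, Batf by 1.32 and Irf4 by 1.02 (log2). The call of Irf4 was lost without H2-O KO replicate 1 (edgeR adjusted p = 0.290), H2-O WT replicate 1 (0.067) or H2-O WT replicate 3 (0.308). Lef1, one of the pair of factors that prime the Tfh fate with Tcf7, changed by -1.93 ± 0.14 (log2, SE). Tcf7 itself stood at 924 ± 111 against 772 ± 26.1 CPM (SD, n = 6), with a log2 change of -0.08 ± 0.11 (SE). Ascl2, an inducer of Cxcr5, did not pass the low-count filter and was not tested. It had 29 UMIs in 23 of the 134 Tfh-like cells (17.2%), from 5 libraries, against 0.221% of the other kept cells.

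All 5 of the secreted and effector genes that could be tested, of 9 listed, were higher, with a median log2 change of 3.36. The low-count filter could pass a gene found mainly in the Tfh-like cells. Angptl2 was found in 23.1% of these and 1.22% of the other kept cells, and Sostdc1 in 20.9% and 0.455%. The count of this list, here and below, is thus a description. Sostdc1, an antagonist of BMP and Wnt signals made by Tfh cells, stood at 254, 179 and 254 CPM (H2-O KO replicates 1 to 3) and 488, 0 and 473 CPM (H2-O WT replicates 1 to 3). The library at 0 was H2-O WT replicate 2 with its 5 cells, and the other kept cells ran from 0.441 to 11.3 CPM. The log2 change was 5.32 ± 0.25 (SE; edgeR adjusted p = 1.23e-98), although 213 UMIs lay in only 28 cells. Rgs16, a regulator of G protein signals from chemokine receptors, rose by 3.59 ± 0.18 and Angptl2 by 3.36 ± 0.37 (log2, SE). Tnfsf11 (RANK ligand) rose by 2.12 and Tnfsf8 (CD30 ligand) by 1.98.

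Genes that oppose the Tfh fate or carry T cells out of the follicle moved the other way, with 10 of 13 lower, none higher and a median log2 change of -1.11. Il7r, the IL-7 receptor, stood at a lowest value of 18.9, a median of 67.2 and a highest value of 93.6 CPM in the Tfh-like cells, and between 357 and 395 CPM in the other kept cells. Its log2 change was -2.95 ± 0.19 (SE; edgeR adjusted p = 1.06e-49). Ccr7 changed by -1.98, Selplg by -1.87, S1pr1 by -1.68 and its activator Klf2 by -1.64 (log2). Ccr7, which guides cells to the T zone, stood at 155, 203 and 183 CPM (H2-O KO) and at 126, 536 and 37.8 CPM (H2-O WT), against 454 to 616 CPM in the other kept cells. Only H2-O WT replicate 2 reached into the range of the other cells. Foxo1 changed by -1.11, Gpr183, the oxysterol receptor of the follicle border, by -0.73 and Stat5b by -0.55 (log2). The call of Stat5b was lost without H2-O WT replicate 1 (edgeR adjusted p = 0.0562) or 3 (0.0978). Prdm1, which encodes Blimp-1, the repressor of Bcl6, had 5 UMIs in the Tfh-like cells and a log2 change of -0.62 ± 0.68 (SE), and Id2 (-0.35) and Stat5a (-0.39) also missed the threshold.

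**Figure D3:**
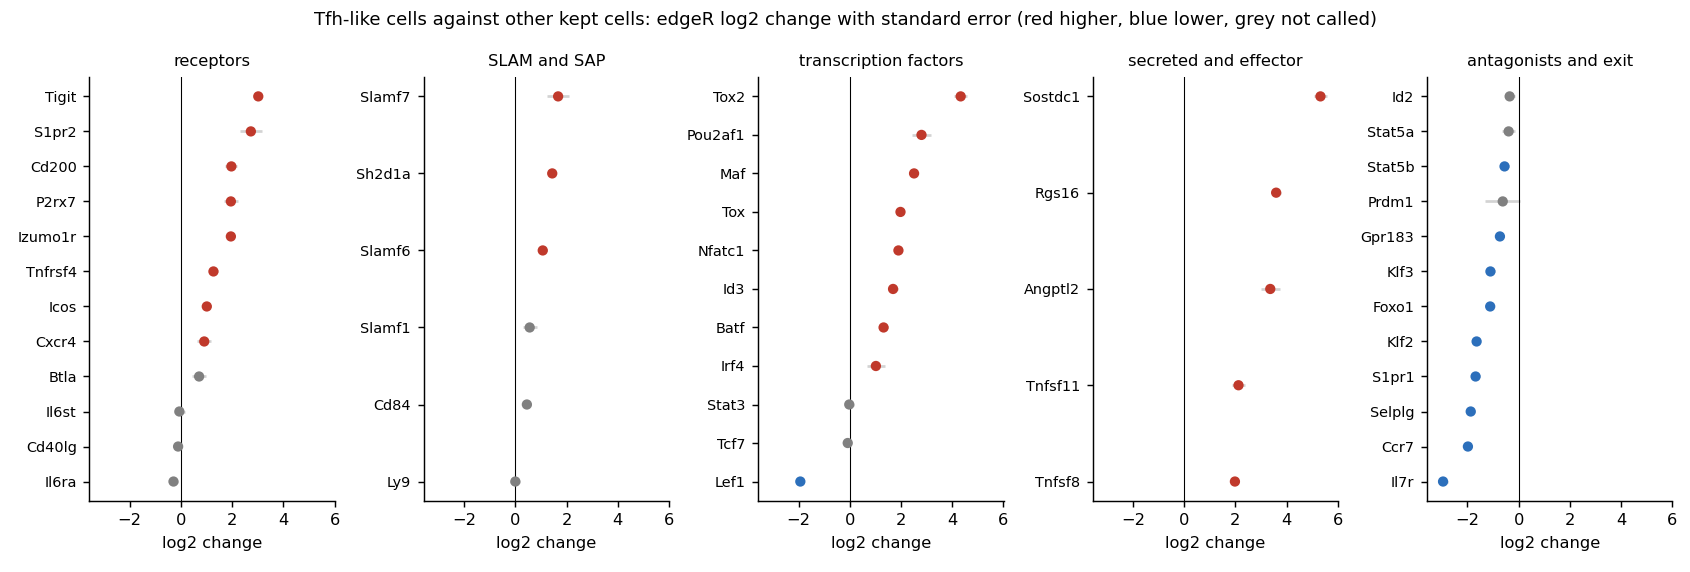
log2 change (edgeR, TMM scale) of Tfh-like against other kept cells for tested genes of 5 lists, with the standard error as a grey line. Red points were called higher, blue points lower and grey points neither; 8 of 12 receptors, 3 of 6 SLAM genes, 8 of 11 transcription factors and 5 of 5 secreted genes are red, and 9 of the 12 antagonist and exit genes drawn are blue, with 10 of 13 lower over all those tested.

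Naive and quiescence genes gave 13 of 15 lower and none higher, with a median log2 change of -1.93. This list shares genes such as S1pr1, Klf2, Ccr7 and Il7r with the list of exit genes. Ly6c1, a surface protein of naive cells with low tonic signal, had 5 UMIs in all Tfh-like cells, 6.05 ± 12.5 CPM against 189 ± 26.8 CPM (SD, n = 6), and a log2 change of -5.20 ± 0.35 (SE). Igfbp4 changed by -3.17, Dapl1 by -2.73, the chromatin organizer Satb1 by -2.70 and Bach2 by -1.49 (log2). Memory and activation genes gave 9 of 13 higher and 2 lower. S100a11 rose by 1.90, Anxa2 by 1.83, S100a6 by 1.48, Itgb1 by 1.26, and the hyaluronan receptor Cd44 by 1.23, while Vim and Crip1 changed by -1.07 and -0.91 (log2).

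The rule for the largest changes named further genes outside the lists. Cacna1d, a voltage-gated calcium channel subunit, stood at 78.9 ± 28.0 CPM against 3.70 ± 2.43 CPM (SD, n = 6), a log2 change of 4.14 ± 0.36 (SE). Cxxc5, a CXXC zinc finger protein, rose by 3.96, Fam43a by 3.71, Sh3gl3 by 3.64, 1700019D03Rik by 3.60, the exocytosis protein Stx11 by 3.38, the membrane glycoprotein Gpm6b by 3.37, Sccpdh by 3.35 and the carboxylesterase Ces2c by 3.30 (log2). Each of these was higher in 6 of 6 libraries, as the rule for naming them required. Pdlim4 changed by -4.11 from 4 UMIs, Tdrp by -3.00 from 5 UMIs and Pik3r5, a regulatory subunit of PI3K gamma, by -2.91 from 6 UMIs (log2). Rras2 and Ifngr2, the signalling chain of the interferon-gamma receptor, had 2 and 3 UMIs in all Tfh-like cells, and stood at 51.4 ± 7.32 and 55.6 ± 8.34 CPM in the other kept cells (SD, n = 6).

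Genes of other T helper states were present too. Of 14 Treg genes, 5 were higher and 2 lower, although Foxp3 was 0 by the rule. Ikzf2 (Helios) stood at 438, 671 and 310.0 CPM (H2-O KO) and 756, 357 and 407 CPM (H2-O WT), against 56.8 to 115 CPM in the other kept cells, and its mean of 489.9 ± 180.8 CPM lay beside 475.7 ± 54.1 CPM in all kept Foxp3+ cells (SD, n = 6). Its log2 change was 2.15 ± 0.14 (SE; edgeR adjusted p = 2.95e-53). Nrp1 rose by 2.00, Il10 by 1.88 and Ctla4 by 1.36, while Il2ra, the high-affinity IL-2 receptor chain of Tregs, was lower at 11.5 ± 8.65 against 29.4 ± 5.33 CPM (SD, n = 6), and Klrg1 had 0 UMIs. Il2ra lost its call without H2-O KO replicate 2 (edgeR adjusted p = 0.062) or 3 (0.0508), and its log2 change was -0.01 against the other kept cells without UMIs of the 8 excluded genes, Foxp3 among them. Il10 lost its call without H2-O KO replicate 2 (0.109). The summed level of the Treg list ran from 1107 to 2364 CPM in the Tfh-like cells and from 429 to 743 CPM in the other kept cells, and whether Tregs without a captured Foxp3 UMI entered the Tfh-like cells was not tested. Of 11 anergy genes 6 were higher, among them Lag3 (3.33), Egr2 (2.64) and Nt5e (CD73, 2.11), and Dgka was lower. Of 9 inhibitory receptors 6 were higher, with Cd160 at 2.75, and Cd96 was lower at -1.38 (log2). Of 10 Th1 and cytotoxic genes 5 were higher, Eomes (2.06), Ifng (1.96), Gzmk (1.69), Tbx21 (1.53) and Cxcr3 (1.19), and Il18r1 was lower (-2.29). The change of Eomes was negative, and not called, with at least 2 gate genes found (edgeR adjusted p = 0.0994). Gzmk, with 12 UMIs, lost its call without H2-O KO replicate 3 (edgeR adjusted p = 0.559), H2-O WT replicate 1 (0.0577) or H2-O WT replicate 2 (0.0659). Ccl5, the leading gene of that state, was 0 by the rule. None of 3 Th2 and Th17 genes passed, and Gata3 stood at a log2 change of -0.06.

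T cell receptor signal genes did not move together. Nr4a2 (1.19), Nr4a3 (0.98), Egr1 (0.68), Egr2 and Irf4 were higher, and Myc (-1.70) and Nr4a1 (-0.42), which encodes Nur77, were lower (log2), 5 and 2 of 12. Nr4a1 lost its call without H2-O KO replicate 1 or 2 or H2-O WT replicate 1 or 3 (edgeR adjusted p between 0.0686 and 0.214), and Egr1 lost it without H2-O KO replicate 1 (0.281) and stood at -0.50 (log2) with at least 2 gate genes found (0.39). Of 14 interferon response genes, Ifi27l2a was higher (0.55) and 6 were lower, with Ifit3 at -2.42. Cell cycle genes gave 0 of 6 higher and 2 lower, Stmn1 (-1.66) and Tubb5 (-0.57), and Mki67 had 8 UMIs. Of the dissociation stress genes 3 were higher and 4 lower of 12. Of 78 ribosomal protein genes tested, 76 were lower and none higher, with a median log2 change of -0.89. The genes of the ribosomal limit, which goes by the symbols Rps and Rpl and so takes in a few kinases and pseudogenes, took 18.1% of the UMIs of the median Tfh-like cell and 30.6% of those of the median other kept cell, and the share had a lower limit of 10% in the rule.

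Markers of other cell types were summed in each library. Of 18 B cell genes beyond those of the rule, 10 had a UMI in Tfh-like cells, and their summed level was 662, 538 and 361 CPM (H2-O KO) and 394, 107 and 681 CPM (H2-O WT), against 418 to 664 CPM in the other kept cells. Ighm made up 300 of the 394 UMIs and was found in 73.9% of the Tfh-like cells, 60.8% of the other kept cells and 47.1% of Ccl5+ Foxp3-negative cells. Cr2, Fcer2a, Ighd, Blk, Ly6d, Iglc2 and H2-Eb1 had 0 UMIs. Of the 10 tested, 1 was higher and 5 were lower (Ly6d, H2-Ab1, H2-Aa, H2-Eb1 and Cd74). The higher one was Igkc (log2 2.02 ± 0.36 SE), from 37 UMIs in 9 cells of 3 libraries, and Cd74 changed by -1.96. Igkc lost its call without H2-O WT replicate 3 (edgeR adjusted p = 0.176), and Cd74 stood at 0.30 (log2) against the other kept cells without UMIs of the 8 excluded genes, B cell genes among them. The rule took cells with a Cd79a or Ms4a1 UMI out of the Tfh-like cells only. The 5 falls are thus a description and support nothing about the Tfh-like cells. Of 14 macrophage genes 5 had a UMI, and 6 were tested. Apoe (23 UMIs in 4 cells) and Hmox1 (23 UMIs) were higher, and Tyrobp and Lyz2 were lower. Tyrobp, Lyz2, Adgre1, Spic and Vcam1 had 0 UMIs. The rule took cells with a C1qa, C1qb or C1qc UMI out of the Tfh-like cells only, so that the falls of Tyrobp and Lyz2 are a description. Apoe lost its call without H2-O KO replicate 2 (edgeR adjusted p = 0.711) and Hmox1 lost it in 5 of the 6 fits that left out a library. Both changes were negative, and not called, in the Tfh-like cells that also lacked 7 further B cell genes. The summed macrophage level was 55.9, 156 and 66.1 CPM (H2-O KO) and 31.5, 35.7 and 132 CPM (H2-O WT), against 48.9 to 95.8 CPM in the other kept cells. Of 8 genes of NK, CD8 and gamma delta T cells, 3 had 8 UMIs in all, 6 of them of Cd8b1, with a summed level of 0 to 28.4 CPM against 46.1 to 62.6 CPM in the other kept cells. The 3 tested (Fcer1g, Cd8b1 and Klrd1) were all lower, and Cd8a, Ncr1, Trdc, Tcrg-C1 and Fcer1g had 0 UMIs. Cells with a Ccl5 or Zbtb16 UMI were likewise taken out of the Tfh-like cells only, so that these falls too are a description. The part of RNA of other cell types in the results was not tested. With only the 33 Tfh-like cells that also lacked 7 further B cell genes, 608 of 9348 genes were called, 126 higher (1.35%) and 482 lower (5.16%), with 5 of 12 receptors, 0 of 6 SLAM genes, 8 of 11 transcription factors and 5 of 5 secreted genes higher, and 9 of 13 exit genes and 13 of 15 naive genes lower.

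The count of called genes fell to 814 of 10903 without H2-O KO replicate 3 and H2-O WT replicates 1 and 3, 361 higher (3.31%) and 453 lower (4.15%), where 7 of 12 receptors, 2 of 6 SLAM genes and 7 of 11 transcription factors were called higher and 9 of 13 exit genes and 13 of 15 naive genes lower. DESeq2 called 486 higher and 424 lower.

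The nearest populations were those that failed the rule at 1 step. The same Tfh-like sums entered each of these comparisons, so that they are not independent of each other. Against the 1277 Cxcr5-negative cells with a gate UMI, 245 of 5311 genes were higher (4.61%) and 286 lower (5.39%). Izumo1r stood at 979.7 ± 236 CPM in the Tfh-like cells and 412 ± 192 CPM in the Cxcr5-negative cells (SD, n = 6), a log2 change of 1.14 ± 0.13 (SE; edgeR adjusted p = 7.53e-08). Cxxc5 (2.53), Tox2 (2.49), Fam43a (2.18), Stx11 (2.17), Rgs16 (2.08) and Tigit (2.02) were the named rises. Ly6c1 (-4.42), Pdlim4 (-3.29), Satb1 (-2.34), Igfbp4 (-2.30) and Gm34006 (-2.29) were named falls, with Rras2. Of the Tfh transcription factors 6 of 10 were higher and Lef1 was lower, and 8 of 12 exit genes were lower. Ribosomal protein genes made up 73 of the 286 lower calls, 73 of 78 tested with a median log2 change of -0.58. The B cell list summed to 268 to 1583 CPM in the Cxcr5-negative cells, highest in H2-O KO replicate 3, and the macrophage list to 14.0 to 439 CPM, highest in H2-O KO replicate 2, with Cd74 called lower in the Tfh-like cells. The part of such RNA here was not tested. Without H2-O KO replicate 1 the calls numbered 344, and Gm34006 was not among them (edgeR adjusted p = 0.056).

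Against the 185 Cxcr5+ cells without a gate UMI, 94 of 2066 genes were higher (4.55%) and 126 lower (6.1%). Rgs16 stood at 309 ± 119 CPM in the Tfh-like cells and at 59.5 ± 27.6 CPM in the comparison cells (SD, n = 6), a log2 change of 2.19 ± 0.22 (SE; edgeR adjusted p = 6e-07). Tigit (2.02), the costimulatory protein Cd83 (1.59), Tox2 (1.57), Tox (1.53) and Plekho1 (1.49) were the other named rises. The kinase Txk (-1.80), Satb1 (-1.54), Selplg (-1.46), Rasgrp2 (-1.40) and Gm2682 (-1.31) were among the falls. Izumo1r rose by 0.65 ± 0.18 and Sh2d1a by 0.81 ± 0.16 (log2, SE), the former no longer called when any single H2-O KO library or H2-O WT replicate 3 was left out (edgeR adjusted p between 0.0744 and 0.122), 6 of 9 Tfh transcription factors were higher, and 9 of 11 exit genes were lower. Ribosomal protein genes made up 42 of the 126 lower calls, 42 of 76 tested with a median log2 change of -0.32. The macrophage list summed to 31.5 to 156 CPM in the Tfh-like cells and to 0 to 41.6 CPM in the comparison cells, higher in the former in every library. The B cell list ran from 107 to 681 CPM in the Tfh-like cells and from 179.5 to 449 CPM in the comparison cells. How much such RNA entered this comparison was not tested. The calls numbered 57, 120 and 127 without H2-O KO replicates 1, 2 and 3, and DESeq2 called 105.

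Against the 52 Cxcr5+ Foxp3+ cells with a gate UMI, 8 of 1156 genes were higher (0.692%) and 22 lower (1.9%). Of the follicular lists, 0 of 4 tested receptors were higher and 1 lower (Tnfrsf4), 1 of 9 tested transcription factors was higher (Tcf7), 2 of 3 tested secreted genes were higher (Tnfsf8 and Sostdc1), and none of 5 tested antagonist and exit genes was called. Of the Treg list 4 of 5 tested genes were lower, Tnfrsf4, Tnfrsf18, Ctla4 (-0.99) and Ikzf2 (-0.78), the latter pair higher in the Tfh-like cells than in the other kept cells. Maf stood at 426 ± 190 against 446 ± 140 CPM and Izumo1r at 979.7 ± 236 against 1252 ± 111 CPM (SD, n = 6), with log2 changes of -0.26 ± 0.23 and -0.32 ± 0.14 (SE). Tcf7 rose by 0.93 ± 0.18 (SE; edgeR adjusted p = 0.00393), at 924 ± 111 against 512 ± 127 CPM (SD, n = 6), with Slamf6 (1.33), Trim8 (1.03), Dennd2d (1.00) and the integrin chain Itga4 (0.94). Among the genes named here the largest falls were those of TNF receptors of Tregs, Tnfrsf1b (-1.79), Tnfrsf4 (-1.59) and Tnfrsf18 (GITR, -1.43), followed by Rgs2 (-1.20), Hopx (-1.15) and Nrip1 (-1.01). The summed level of the B cell list ran from 855 to 1194 CPM in the Cxcr5+ Foxp3+ cells and from 107 to 681 CPM in the Tfh-like cells, without overlap. Ighm, the most abundant of these genes, was called lower in the Tfh-like cells (-0.87), and Cr2, Fcer2a, Ighd, Blk, Ly6d, Iglc2 and H2-Eb1 had 0 UMIs in both. The part of such RNA in this comparison was not tested. Il21, a gene of the rule, had 65 UMIs in the Tfh-like cells and 0 in these cells, and Sostdc1 was called higher with 274.7 ± 185 against 55.5 ± 103 CPM (SD, n = 6). Of the genes named here, Tnfrsf4, Tnfrsf18 and Tnfrsf1b were called whichever library was left out, Tcf7 was not called without H2-O KO replicate 3, and the others were each lost without at least 2 of the libraries. Between 4 and 16 genes were called without H2-O KO replicate 1, 2 or 3 or H2-O WT replicate 1 or 3, and DESeq2 called 10.

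**Figure D4:**
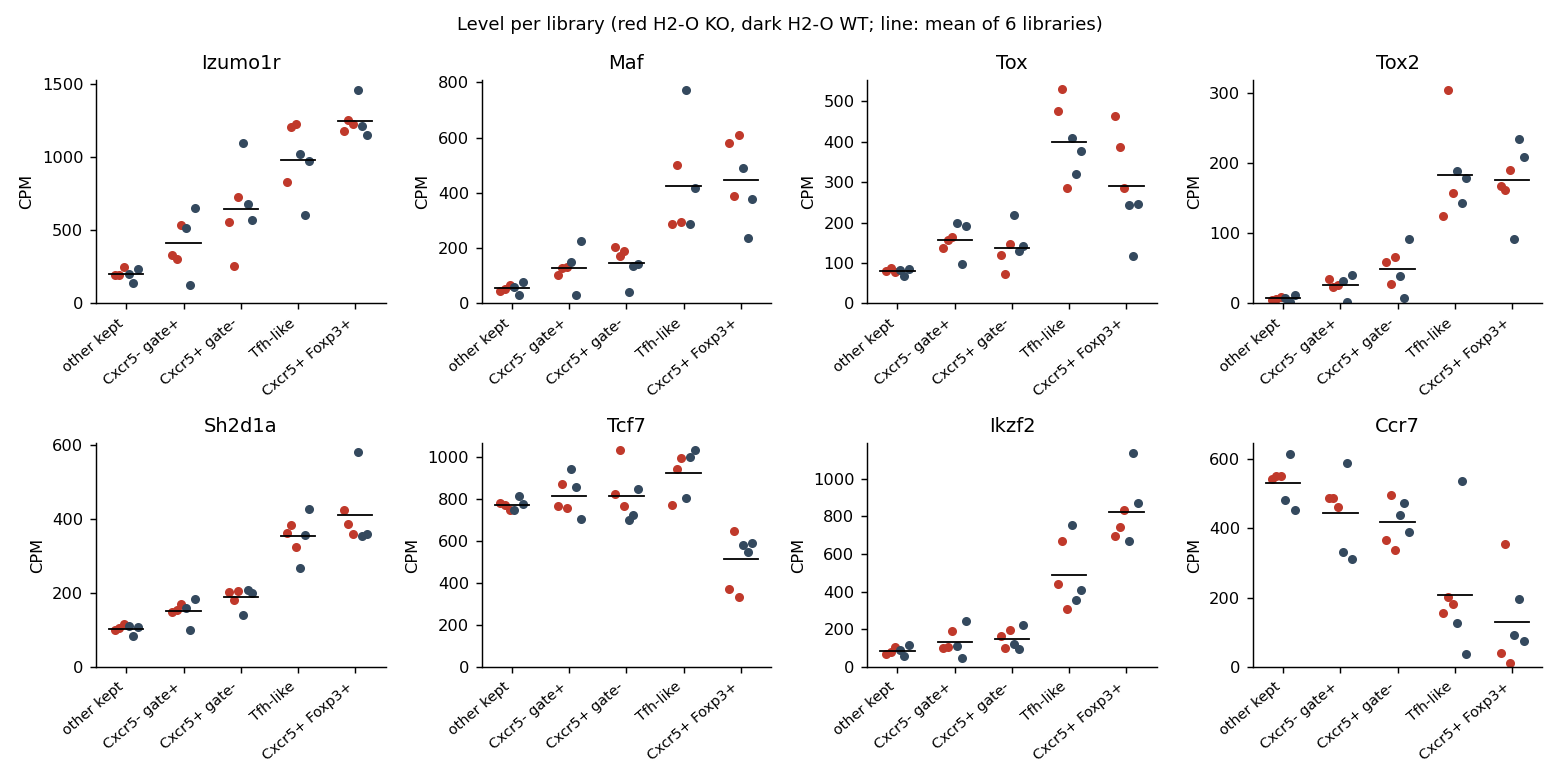
Level of 8 genes in CPM for 5 populations of kept cells, 1 point per library (red H2-O KO, dark blue H2-O WT), with the mean of 6 libraries as a line. Cxcr5- gate+ are the Cxcr5-negative cells with a Pdcd1, Bcl6 or Il21 UMI and Cxcr5+ gate- the Cxcr5+ cells without one; Tfh-like and Cxcr5+ Foxp3+ cells lie above the other populations in Maf, Tox2 and Sh2d1a, and Tcf7 is lowest in the Cxcr5+ Foxp3+ cells.

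How the genes of the program fell together was read cell by cell. Of Izumo1r, Icos, Maf, Tox, Tox2 and Sh2d1a, none of which the rule used, the median Tfh-like cell had a UMI of 4. At least 3 of the 6 were found in 87.3% of the Tfh-like cells, 88.5% of the Cxcr5+ Foxp3+ cells, 50.3% of the Cxcr5+ cells without a gate UMI, 34.4% of the Cxcr5-negative cells with one and 9.07% of the 18099 cells with neither. After thinning to 1500 UMIs the shares were 45.9%, 44.2%, 18.3%, 12.3% and 1.28%, in 133, 52, 180, 1240 and 17165 cells. The Tfh-like and Cxcr5+ Foxp3+ cells were close to each other at both depths and above the other 3 populations.

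What single Tfh-like cells carried was read next. Il4, the cytokine of class switching, had 32 UMIs in 11 cells of 3 libraries. All 11 had a Pdcd1 UMI and 4 an Il21 UMI, where 88 and 35 of all 134 Tfh-like cells had one. Pdcd1 and Il21 chose the cells, so that these counts are a description. Il4 was found in 8.21% of the Tfh-like cells, 0.753% of the other kept cells and 7.69% of the Ccl5+ Foxp3-negative cells, so that the first and last shares were close. Il21, a gene of the rule, stood at 47.3, 78.0 and 107 CPM (H2-O KO) and 158, 35.7 and 113 CPM (H2-O WT). Ccr7 was found in 38 Tfh-like cells. Cells with a Pdcd1 UMI were compared with those without one, and 0 of 868 genes passed in either direction (0.0% higher and 0.0% lower by edgeR, 85 at an unadjusted p under 0.05, and 0 by DESeq2). Tigit stood at 428 ± 180.4 against 225 ± 160.3 CPM (SD, n = 6), with a log2 change of 0.76 ± 0.27 (SE; edgeR adjusted p = 0.251), and Izumo1r at a log2 change of -0.16 ± 0.17.

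Between genotypes, the Tfh-like cells gave 0 of 2157 genes higher in H2-O KO (0.0%) and 1 lower (0.0464%), with 137 genes at an unadjusted p under 0.05. The gene was S100a4, a calcium-binding protein of memory and motile T cells (chromosome 3 from 90603771 to 90606045 in GRCm38). In the Tfh-like cells it stood at 73.1, 23.4 and 91.5 CPM (H2-O KO replicates 1 to 3) and 331, 179 and 312 CPM (H2-O WT replicates 1 to 3). Every H2-O KO library lay below every H2-O WT library. The log2 change was -2.15 ± 0.37 (SE; edgeR adjusted p = 0.0305), and DESeq2, which also called 1 gene, gave an adjusted p of 0.0285. Its 97 UMIs lay in 19 cells, 10 from H2-O KO and 9 from H2-O WT. In the other kept cells S100a4 stood at 45.2, 53.6 and 102 CPM (H2-O KO) and at 78.0, 47.3 and 128 CPM (H2-O WT), with overlap. Highest there were H2-O KO replicate 3 and H2-O WT replicates 1 and 3, the libraries with most cells over the mitochondrial limit. In the Tfh-like cells these libraries were also the highest of their genotypes, and a link was not tested. The call was lost without H2-O KO replicate 2 (edgeR adjusted p = 0.0624), H2-O KO replicate 3 (0.0656), H2-O WT replicate 1 (0.255) or H2-O WT replicate 3 (0.161). It was also lost with at least 2 of the gate genes found (a log2 change of -1.93, edgeR adjusted p = 0.184) and with the replicate number as a block (0.161).

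None of the 8 Tfh receptors tested, 4 SLAM genes, 9 transcription factors, 4 secreted genes and 9 exit genes was called between genotypes, with median log2 changes of 0.10, -0.10, -0.11, -0.46 and -0.01 against -0.01 over all genes. Izumo1r changed by 0.22 ± 0.21, Sh2d1a by -0.05 ± 0.26, Tox by 0.14 ± 0.27 and Maf by -0.57 ± 0.30 (log2, SE). For Maf, H2-O KO replicates 1 to 3 stood at 288, 499 and 295 CPM and H2-O WT replicates 1 to 3 at 772, 286 and 416 CPM, which overlapped. Nr4a1 stood at 279, 203 and 290 CPM (H2-O KO) and at 31.5, 357 and 85.1 CPM (H2-O WT), a log2 change of 1.19 ± 0.46 (SE; edgeR adjusted p = 0.760), with H2-O WT replicate 2 the highest of the 6. Without 1 library the change of Nr4a1 ran from 0.69 (without H2-O WT replicate 1) to 1.98 (without H2-O WT replicate 2) and that of Maf from -0.81 (without H2-O KO replicate 2) to -0.13 (without H2-O WT replicate 1). The libraries held 5 to 42 Tfh-like cells each, and a gene that missed the threshold was not shown to be equal between genotypes.

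**Figure D5:**
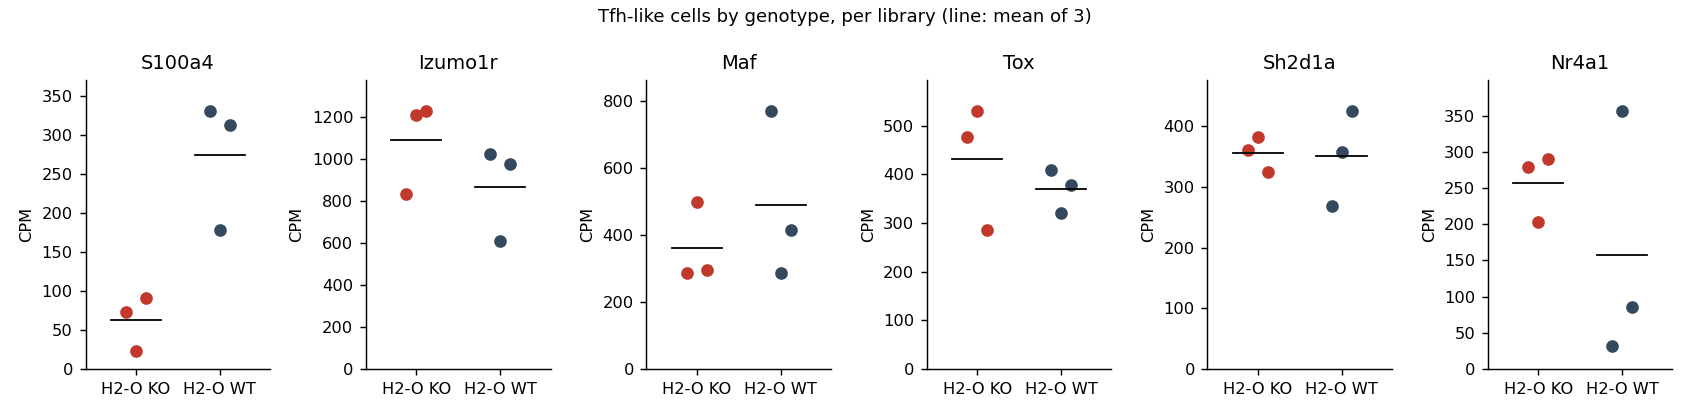
Level of 6 genes in the Tfh-like cells in CPM, 1 point per library, with the mean of 3 as a line, H2-O KO in red and H2-O WT in dark blue. The S100a4 points do not overlap (23.4 to 91.5 against 179 to 331 CPM), and those of the other genes do.

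Whether the genotypes differed in the change from other kept cells to Tfh-like cells was tested with the interaction of population and genotype, also over 9595 genes. It was higher in H2-O KO for 6 genes (0.0625%) and lower for 12 (0.125%), and DESeq2 called 0. V segments of the T cell receptor made up 14 of the 18. Trbv17 had 143 UMIs in 6 Tfh-like cells, 63 of them in 1 cell, and Trav7-6 had 15 UMIs in 2 cells. Trbv segments were found in 131 of the 134 cells, 21 segments in all, and no segment led in more than 16 cells. UMIs of more than 1 Trbv segment were found in 74 of these cells and of a single one in 57, and where the further segments came from was not tested. Near-identical copies of Trav segments may share reads, which was not tested here.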

How the data were processed

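Gene by cell matrices of raw UMI counts were deposited by the authors as filtered Cell Ranger output (Cell Ranger 6.1.2, genome build mm10, per the submitters' processing notes), 1 matrix per mouse, with no normalization. Doublets were limited only by the maximum of 12000 UMIs. The members and the gene lists were chosen with earlier results of these data known. UMIs were summed per library and population, and the sums were tested with edgeR 4.0.16 in R 4.3.3 (quasi-likelihood F-test, TMM scaling, default filter on low counts, Benjamini-Hochberg adjustment over all genes tested, called at an adjusted p under 0.05). The library was a block where both populations came from each library. On simulated data the test missed most of the changes set between genotypes and a part of those set between populations. CPM were computed on the summed UMIs, and a mean ± SD is over libraries. The mouse was the replicate, with 3 per genotype. P-values of H2-O KO against H2-O WT cover the spread between these mice. Those of fits with the library as a block cover the spread, over the libraries, of the change within a library.

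Genes were named from the lists and, by log2 change among called genes with a mean of at least 20 CPM, at least 10 UMIs on one side and the same direction in every library, as the 12 largest rises and 8 largest falls against other kept cells and up to 6 of each elsewhere. V segments were not named by this rule, and those named among the interaction genes, with Cxcl10, C2cd4b and Sox4, were chosen after their values were seen, as was Nr4a1 between genotypes. Alternatives were DESeq2 1.42.0, no filter on low counts, other limits on cells and members, leaving out each library, and a replicate block. Gene positions came from GENCODE M21, in which 32158 of 32285 identifiers were found. The replicate numbers were not taken as pairs of mice. Values of some list genes are not reported here, and the counts over the lists include them.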

Additional observations from a re-analysis of the deposited data

Results flagged for a closer look

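The genotype difference in the Tfh-like cells differed from that in the other kept cells for 18 genes, by the interaction term (edgeR adjusted p under 0.05), while DESeq2 called 0. The values are the log2 change of H2-O KO against H2-O WT in Tfh-like cells less that in the other kept cells. S100a4 stood at -1.50 ± 0.36 (SE; edgeR adjusted p = 0.022), and lost its call without H2-O KO replicate 2 (0.401) or 3 (0.366), H2-O WT replicate 1 (0.57) or 3 (0.0687), or the filter on low counts (0.0671). Cxcl10, a chemokine that binds CXCR3, stood at 2.47 ± 0.62, with, in the Tfh-like cells, 81.7, 156 and 208 CPM (H2-O KO) and 47.3, 0 and 56.7 CPM (H2-O WT), without overlap, from 89 UMIs in 28 cells. Its call (edgeR adjusted p = 0.0339) was lost without H2-O KO replicate 2 (0.329) or 3 (0.366), without H2-O WT replicate 1 (0.697), 2 (0.0685) or 3 (0.212), and without the filter. C2cd4b stood at 2.61 ± 0.65, with 112, 234 and 102 CPM (H2-O KO) and 15.8, 71.4 and 37.8 CPM (H2-O WT), also without overlap, from 83 UMIs in 23 cells. Its call (edgeR adjusted p = 0.0339) was lost without H2-O KO replicate 1 (0.151) or 2 (0.45), without H2-O WT replicate 1 (0.686) or 3 (0.709), and without the filter. Sox4, a transcription factor, stood at -4.60 from 18 UMIs in 4 cells, and was not called without H2-O WT replicate 3 (edgeR adjusted p = 0.294).

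Among the beta chain segments, Trbv3 (3.30), Trbv13-3 (2.58), Trbv15 (4.11) and Trbv19 (1.79) were higher, and Trbv13-1 (-1.50), Trbv14 (-3.18), Trbv17 (-2.11), Trbv20 (-2.85) and Trbv26 (-4.21) lower. Trbv14 had 23 UMIs in 3 cells, 18 of them in 1 cell. Among the 14 V segments, Trbv3, Trbv15 and Trbv26 were called whichever library was left out, and each of the others lost its call or turned without at least 1 library. These 3 also rested on few cells, Trbv3 on 171 UMIs in 13 cells, Trbv15 on 95 UMIs in 7 cells and Trbv26 on 24 UMIs in 4 cells, 11 of them in 1 cell. Among the alpha chain segments, Trav12-2 stood at -3.50, Trav6n-6 at -11.84, Trav14n-3 at -11.84, Trav4-4-dv10 at -12.35 and Trav7-6 at -11.63. The latter 4 rested on 2 to 5 cells each, and a fitted change of this size is no bound on a fold.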

How the results depend on the processing

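The difference in the share of Tfh-like cells (0.0825 percentage points) turned to -0.0918 with at least 2 gate genes found, to -0.0245 with 0 UMIs of 7 B cell genes and to -0.126 without H2-O WT replicate 2, and leaving out each library gave -0.126 to 0.224. At 1500 UMIs the difference ran from -0.0632 to 0.0247 without each library, and at 3000 UMIs it was 0.0538. Called genes against the other kept cells (1433) numbered 910 by DESeq2, 858 with at least 2 gate genes, 608 with 0 UMIs of 7 B cell genes, 814 without the 3 libraries with most cells over the mitochondrial limit, and 976 to 1531 without each library. Against Cxcr5+ Foxp3+ cells (30) they numbered 10 by DESeq2, 66 without the filter and 4 to 26 without each library. Against Cxcr5-negative cells (531) the range was 344 to 530, and against Cxcr5+ cells without a gate UMI (220) it was 57 to 215, with 105 by DESeq2. Between Tfh-like cells with and without Pdcd1, 8 genes were called without the filter and 0 to 1 without each library. Between genotypes (1) the calls numbered 28 without the filter, 2 with at least 2 gate genes (S100a4 not among them), 0 with 0 UMIs of 7 B cell genes, 41 without the 3 libraries named above, and 0 to 4 without each library. The fit without those 3 libraries set H2-O KO replicates 1 and 2 against H2-O WT replicate 2 alone, with its 5 cells, which was assumed to vary like the H2-O KO libraries, so that its values restate 1 library and bear on no call (S100a4 -1.65, edgeR adjusted p = 0.444). The interaction (18) gave 0 by DESeq2 and 10 to 14 without each library, and Trbv14 turned to 9.53 without H2-O WT replicate 3. Among named genes, values turned sign under single settings. With at least 2 gate genes, Eomes (-9.35), Slamf7 (-9.33), Cd84 (-0.21) and Egr1 (-0.50) turned. With 0 UMIs of 7 B cell genes, Apoe (-9.05), Hmox1 (-0.11) and Cxcr4 (-0.10) turned. The fitted values of Eomes, Slamf7 and Apoe are no bound on a fold. Against kept cells without the 8 excluded genes, Cd74 (0.30), Prdm1 (0.21), Gata3 (0.11) and Ly9 (0.03) turned, and by DESeq2 Ly9 (0.01), Il6st (0.01) and Gata3 (0.00). Between genotypes, without the 3 libraries named above, Maf (0.49), Nr4a1 (-0.44) and Sh2d1a (0.14) turned, all against that 1 H2-O WT library, and Sh2d1a stood at 0.14 without the filter. Without each library, Ly9 ran from -0.32 to 0.09, Gata3 from -0.16 to 0.00, Sh2d1a between genotypes from -0.22 to 0.27 and the Trbv14 interaction from -3.89 to 9.53. The cause of these shifts was not tested.

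With the replicate block the share difference was 0.0825, and 0 genes were called between genotypes (S100a4 adjusted p = 0.161 by edgeR). Deviations of same-numbered libraries correlated at 0.0103, -0.0262 and -0.0217 over 2161 genes in the Tfh-like cells, and at -0.124, 0.279 and 0.691 in the other kept cells. Since not every pair lay above 0.1 in either, the numbers were not taken as pairs.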
